A study of Mus musculus with 16 samples.

Results

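The clustered protocadherins were represented by 65 H3K4me3 regions among the 35996 regions measured in mouse hippocampus. A region belonged to the set when it lay on chromosome 18 of the mm10 build, inside a gene with a symbol starting Pcdha, Pcdhb or Pcdhg or no more than 2 kb from its start or end. The alpha cluster held 16 of these regions, the beta cluster 22 and the gamma cluster 27, and together they lay between positions 36930285 and 37843152. H3K4me3, histone H3 trimethylated on lysine 4, was profiled by ChIP-seq, immunoprecipitation of chromatin followed by single-end sequencing, in 12 libraries, 2 in each of 6 groups. All mice were adult males of 2 to 4 months with littermate controls, and each library pooled the hippocampi of 2 mice. The groups were Kdm5c KO and WT mice under standard conditions, and Kdm5c KO and WT mice after 1 h of exploring a box with tubing and toys, called novelty. These 4 groups had a mixed F1 C57/129 background. The last pair were Kdm5c ifKO mice and their controls, written ifWT, both kept under basal conditions on a pure C57BL/6J background. The labels do not say how either mutant line was made or in which cells the ifKO line lacks Kdm5c. One ifWT library carries H3K3me3 in its title and the H3K4me3 antibody in its labels, and it was taken as H3K4me3.

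Clustered protocadherins are neuronal cadherin-like adhesion proteins that bind the same isoform on a facing membrane. Each alpha and gamma gene has its own promoter and a variable exon, which is spliced to constant exons shared by the whole cluster, whereas each beta gene is a single exon. Single neurons transcribe a few alternate isoforms chosen almost at random, while most neurons use the C-type isoforms Pcdhac1, Pcdhac2, Pcdhgc3, Pcdhgc4 and Pcdhgc5 more uniformly. The combination marks a neuron's own branches so that they avoid one another. CTCF, cohesin and distant enhancers choose the promoter in use, and DNA methylation silences the others. An active promoter carries H3K4me3, and Kdm5C, encoded by an X-linked gene mutated in human intellectual disability, is an enzyme that removes methyl groups from this lysine.

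The gene table held 58 clustered protocadherin genes, 14 alpha, 22 beta and 22 gamma, and 57 of them had a region at their own start. Pcdha8 was the one without. Of the 57 start regions, 55 overlapped the start itself. The Pcdhgc5 region began 2 bp past its gene start and the Pcdhga12 region 357 bp past its own. 52 of them belonged to alternate isoforms or beta genes, 11 alpha, 22 beta and 19 gamma, and 5 to C-type isoforms. The table gives gene ends but neither exons nor strand, so the constant exons were represented by the end that the genes of a cluster share. In gamma, 1 region spanned the shared end (chr18:37841261-37842170) and 1 lay 454 bp beyond it (chr18:37842324-37843152), 449 bp from the end of the formin gene Diaph1. No region lay within 2 kb of the shared alpha end. The other 6 regions lay inside the clusters, away from protocadherin gene starts and the shared end. One of these, at chr18:37824680-37825897, lay 5.13 kb past the Pcdhgc5 start. It lay 1214 bp from the nearer end of the long noncoding RNA gene Gm29994. Without strand, whether that end is the Gm29994 start is not known here. Windows of 1 kb and 5 kb gave the same 65 members. The nearest outside region lay 5.35 kb before the gamma genes, and the nearest one beyond the gamma end lay 10.9 kb away, inside Diaph1. The Diaph1 region averaged 1.66 CPM, and the member 454 bp beyond the shared end averaged 3.91 CPM.

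H3K4me3 was low at most clustered protocadherin promoters and higher at the C-type promoters, whose median was close to that of all gene-end regions. Levels are given as CPM, counts scaled to a common library size. They are compared between regions per kb of region width, except where CPM alone is named. The median level of the 65 regions was 4.64 CPM per kb, between 2.26 and 41.1, beside 24.4 CPM per kb over all 19846 regions at gene ends and 6.56 over all regions. The 52 start regions of alternate isoforms and beta genes had a median of 4.56 CPM per kb and did not exceed 10.5. The 5 C-type starts lay between 15.8 and 41.1, with a median of 25.9. They held 47.4% to 57.8% of all member CPM in every library. This share is not scaled by width, and the C-type regions are wider. Their median width was 1929 bp, beside 887 bp for the 52 other starts. Beta starts had a median of 3.42 CPM per kb, alternate alpha starts 4.76 and alternate gamma starts 5.61.

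**Figure D1:**
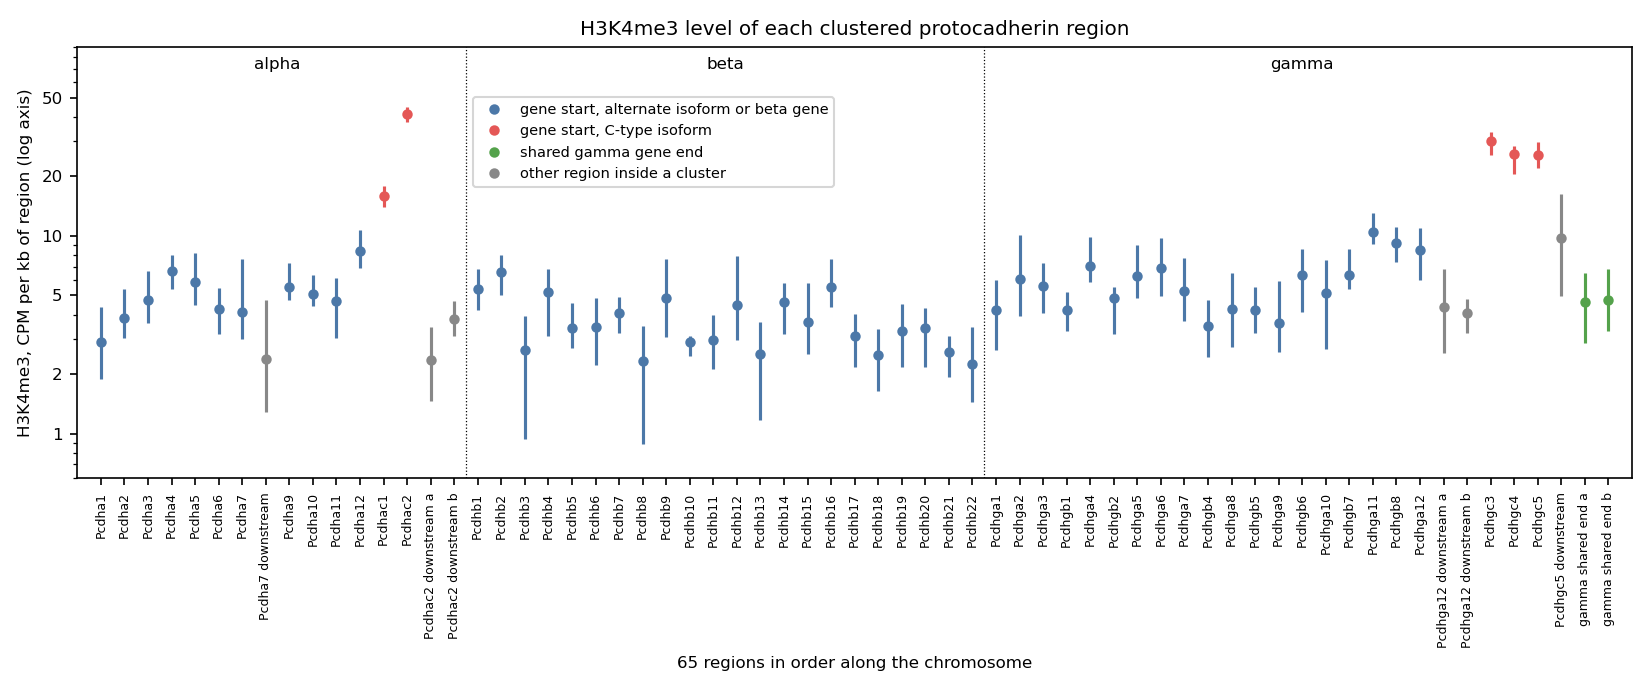
H3K4me3 level, in CPM per kb of region width on a log axis, of each of the 65 regions in chromosome order; points are means over the 12 libraries and lines run from the lowest to the highest library. The 5 C-type starts, between 15.8 and 41.1 CPM per kb on average, stand above all 52 alternate and beta starts, which reach 10.5 at most.

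Pcdhac2 was the strongest region per kb, at 41.1 CPM per kb, above 75.2% of all gene-end regions. Its values were 76.6 and 79.9 CPM in KO and 78.5 and 79.9 CPM in WT under standard conditions, 79.0 and 72.4 CPM in KO and 76.6 and 80.7 CPM in WT after novelty, and 79.7 and 80.4 CPM in ifKO and 86.2 and 81.7 CPM in ifWT. Pcdhac1, the other alpha C-type promoter, reached 15.8 CPM per kb, above 39.5% of gene-end regions, with 19.4 and 20.4 CPM in KO and 18.9 and 21.9 CPM in WT under standard conditions, 19.0 and 20.4 CPM in KO and 19.6 and 20.2 CPM in WT after novelty, and 17.2 and 17.7 CPM in ifKO and 19.7 and 18.8 CPM in ifWT. Neither alpha C-type promoter was called in any of the 9 comparisons. Pcdha12, the last alternate promoter before the C-type exons and the strongest alternate alpha start, averaged 8.38 CPM per kb, with 11.0 and 10.9 CPM in KO and 14.6 and 11.6 CPM in WT under standard conditions, 9.37 and 11.6 CPM in KO and 10.2 and 11.8 CPM in WT after novelty, and 11.8 and 11.5 CPM in ifKO and 10.1 and 12.1 CPM in ifWT. The alpha region with the lowest CPM lay downstream of Pcdha7 (chr18:36980107-36980455) with 0.534 and 0.697 CPM in KO and 0.584 and 0.447 CPM in WT under standard conditions, 0.763 and 0.488 CPM in KO and 0.675 and 0.939 CPM in WT after novelty, and 1.65 and 1.40 CPM in ifKO and 0.833 and 0.982 CPM in ifWT. It held between 10 and 32 reads per library, so only large differences were detectable there.

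In gamma, the C-type promoters Pcdhgc3, Pcdhgc4 and Pcdhgc5 averaged 30.0, 25.9 and 25.5 CPM per kb, above 57.7%, 51.9% and 51.4% of gene-end regions. Pcdhgc3 had 99.2 and 98.5 CPM in KO and 106 and 103 CPM in WT under standard conditions, 94.9 and 96.6 CPM in KO and 104 and 107 CPM in WT after novelty, and 81.5 and 80.8 CPM in ifKO and 83.8 and 86.7 CPM in ifWT. Pcdhgc4, an isoform known in mice for the survival of interneurons, had 43.2 and 44.6 CPM in KO and 45.3 and 44.0 CPM in WT under standard conditions, 41.6 and 43.7 CPM in KO and 43.5 and 45.9 CPM in WT after novelty, and 33.2 and 36.2 CPM in ifKO and 40.2 and 38.5 CPM in ifWT. All 3 carried less H3K4me3 in the C57BL/6J cohort than in the mixed-background cohort in every library, and the strain and the cohort cannot be told apart. The strongest alternate gamma start was Pcdhga11, at 10.5 CPM per kb, followed by Pcdhgb8 and Pcdhga12 at 9.23 and 8.51. The region with the lowest CPM in gamma lay downstream of Pcdhga12 (chr18:37800578-37801244) and had 2.75 and 3.19 CPM in KO and 2.65 and 2.32 CPM in WT under standard conditions, 2.64 and 2.97 CPM in KO and 2.15 and 2.64 CPM in WT after novelty, and 3.09 and 2.81 CPM in ifKO and 2.20 and 3.17 CPM in ifWT.

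All beta promoters were weak, between 2.26 and 6.54 CPM per kb. Pcdhb2, the strongest, had 6.90 and 6.42 CPM in KO and 6.92 and 4.83 CPM in WT under standard conditions, 6.42 and 6.84 CPM in KO and 5.95 and 7.65 CPM in WT after novelty, and 6.58 and 5.73 CPM in ifKO and 5.58 and 5.27 CPM in ifWT. Pcdhb4 had 4.89 and 5.95 CPM in KO and 5.12 and 7.51 CPM in WT under standard conditions, 6.77 and 5.70 CPM in KO and 6.46 and 7.55 CPM in WT after novelty, and 3.50 and 4.55 CPM in ifKO and 6.07 and 5.94 CPM in ifWT, and was lower in the ifKO libraries than in the other 10. The lowest mean CPM in beta was at Pcdhb13, which had 1.03 and 0.587 CPM in KO and 1.39 and 1.12 CPM in WT under standard conditions, 0.858 and 0.977 CPM in KO and 0.464 and 0.522 CPM in WT after novelty, and 1.18 and 1.46 CPM in ifKO and 1.22 and 1.29 CPM in ifWT. Along the chromosome, the level per kb of alternate starts had a Spearman rho of 0.50 with position in alpha (11 starts), 0.37 in gamma (19 starts) and -0.44 in beta (22 starts). These are descriptions over neighbouring promoters measured in the same libraries, and the values in single libraries ran from 0.26 to 0.60, from 0.12 to 0.61 and from -0.67 to -0.15 in alpha, gamma and beta. Variable exons of one cluster are similar in sequence, and the labels do not say how reads matching several places were treated, so single promoters are uncertain to that extent.

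Total counts ran from 18181192 to 30435735 per library, and the 2 libraries of a group correlated at 0.992 to 0.995 over regions. The spread between the 2 libraries beyond counting error was larger in ifKO and ifWT, at 7.29 and 4.30 chi-square units per degree of freedom, than in the other groups (2.19 to 2.75). The labels name separate pools but no separate cohorts within a group, so p-values rest on the spread between pools, which may be partly technical. All 12 libraries share the estimate of that spread. P-values of comparisons with ifKO or ifWT may therefore be too small. The region at the Kdm5c gene end had 60.8 and 60.3 CPM in KO and 66.6 and 72.2 CPM in WT under standard conditions, a mark that does not check the deletion. The 8 hippocampal neuron markers were all marked, with a median of 35.5 CPM per kb, and 11 of 14 markers of glia, vessels, choroid plexus and ependyma had a region, with a median of 10.2; Aqp4, Pdgfra and Ttr had none. The glial marker Gfap was higher in KO under standard conditions (log2 change 0.34 ± 0.10) and after novelty (0.38 ± 0.10), calls lost under 3 and 2 of 11 alternatives. Gfap was the only one of the 11 markers called in these comparisons. The median log2 change of the 11 was -0.09 under standard conditions and -0.06 after novelty. In ifKO the ependymal marker Foxj1 was higher (0.40 ± 0.12), a call lost under 7 of 11. The part of these markers in the differences below was not tested. In whole hippocampus, fewer cells carrying a mark and less mark per cell cannot be told apart.

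Under standard conditions, H3K4me3 was higher in KO hippocampus on the 3′ side of the gamma cluster, and most promoters showed no detectable difference. Of the 65 members, 4 were higher in KO and none lower at a Benjamini-Hochberg adjusted p under 0.05 over all 35955 regions tested (edgeR quasi-likelihood F test), which is 6.15% beside 13.4% of all regions. Higher calls made up 9.73% and lower calls 3.67% of all regions. All 4 were gamma regions, and 3 of them lay past the Pcdhgc5 start while the fourth was the Pcdhga12 start. Within gamma 14.8% of the regions were called, near the 13.4% of all regions. The median log2 change of the members was 0.02, beside 0.01 over all regions, and 10 members had an unadjusted p under 0.05. With offsets fitted to region strength the members split into 3 higher and 2 lower.

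The largest difference was at the region past Pcdhgc5. It had 16.9 and 19.7 CPM in KO hippocampus and 8.80 and 8.49 CPM in WT hippocampus, a log2 change of 1.08 ± 0.13 (SE, edgeR adjusted p = 2.15e-07). The lowest KO library stood well above the highest WT library. The region over the shared gamma end, which belongs to the constant part of all 22 gamma genes, had 5.30 and 5.54 CPM in KO and 2.65 and 2.73 CPM in WT (log2 change 1.01 ± 0.19, edgeR adjusted p = 0.000348). The neighbouring region beyond the shared end had 5.46 and 4.40 CPM in KO and 3.01 and 3.04 CPM in WT (log2 change 0.70 ± 0.20, edgeR adjusted p = 0.0178). In each of the 3 regions both KO libraries were above both WT libraries. The calls past Pcdhgc5 and at the shared end held under every alternative tried. The region beyond the shared end missed the threshold with offsets by region strength (adjusted p = 0.0807), in DESeq2 (0.0522), and without WT replicate 1 (0.101), WT replicate 2 (0.120) or KO replicate 1 (0.188). Summed over the 3 regions, the KO libraries held 28.7 ± 1.45 CPM and the WT libraries 14.4 ± 0.148 CPM (SD, n = 2 libraries each). All 3 were called higher here, so this sum restates those calls and is no separate support.

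**Figure D2:**
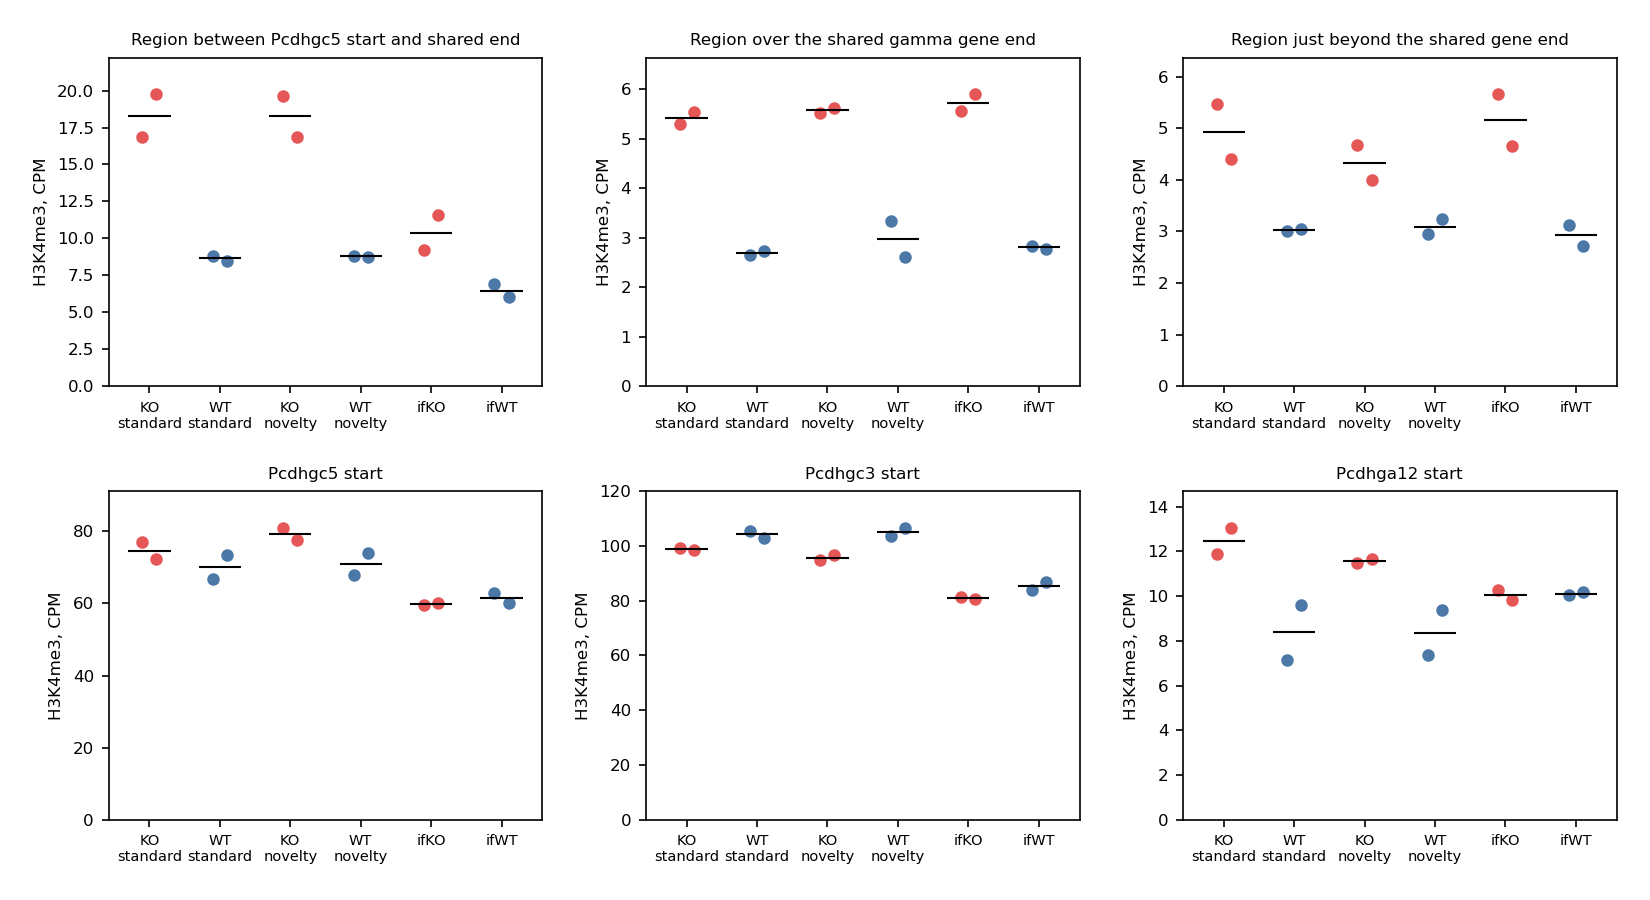
H3K4me3 in CPM in each library of the 6 groups at 6 gamma regions; red points are KO or ifKO libraries, blue points WT or ifWT libraries, and bars are means of 2. In the top row the mutant libraries stand above their controls in each pair, while the Pcdhgc3 and Pcdhgc5 starts upstream differ little.

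Pcdhga12, the last alternate gamma gene, had the only start region called. That region begins 357 bp inside the gene and does not cover the start itself. It had 11.9 and 13.1 CPM in KO and 7.14 and 9.61 CPM in WT (log2 change 0.58 ± 0.14, edgeR adjusted p = 0.00557), without overlap. That call was lost without WT replicate 1 (adjusted p = 0.175) or KO replicate 2 (0.0586). The 5 C-type starts had log2 changes between -0.08 and 0.09, and intervals of 2 SE to either side ran from -0.23 to 0.16 at Pcdhac1, the widest, to -0.18 to 0.02 at Pcdhgc3, the narrowest. Pcdhgc5, whose start lies before the region with the largest difference, had 77.0 and 72.4 CPM in KO and 66.7 and 73.6 CPM in WT, with overlapping libraries. No alpha or beta region was called. Log2 changes ran from -0.36 to 0.26 in alpha and from -0.65 to 0.47 in beta, with a median SE of 0.20 and 0.23, so differences much under 2 SE were not detectable there. The gamma starts next in line, Pcdhga1, Pcdhga2 and Pcdhga3, had log2 changes of 0.55 ± 0.21, 0.51 ± 0.20 and 0.43 ± 0.18 and did not pass (edgeR adjusted p = 0.0697, 0.0861 and 0.102).

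**Figure D3:**
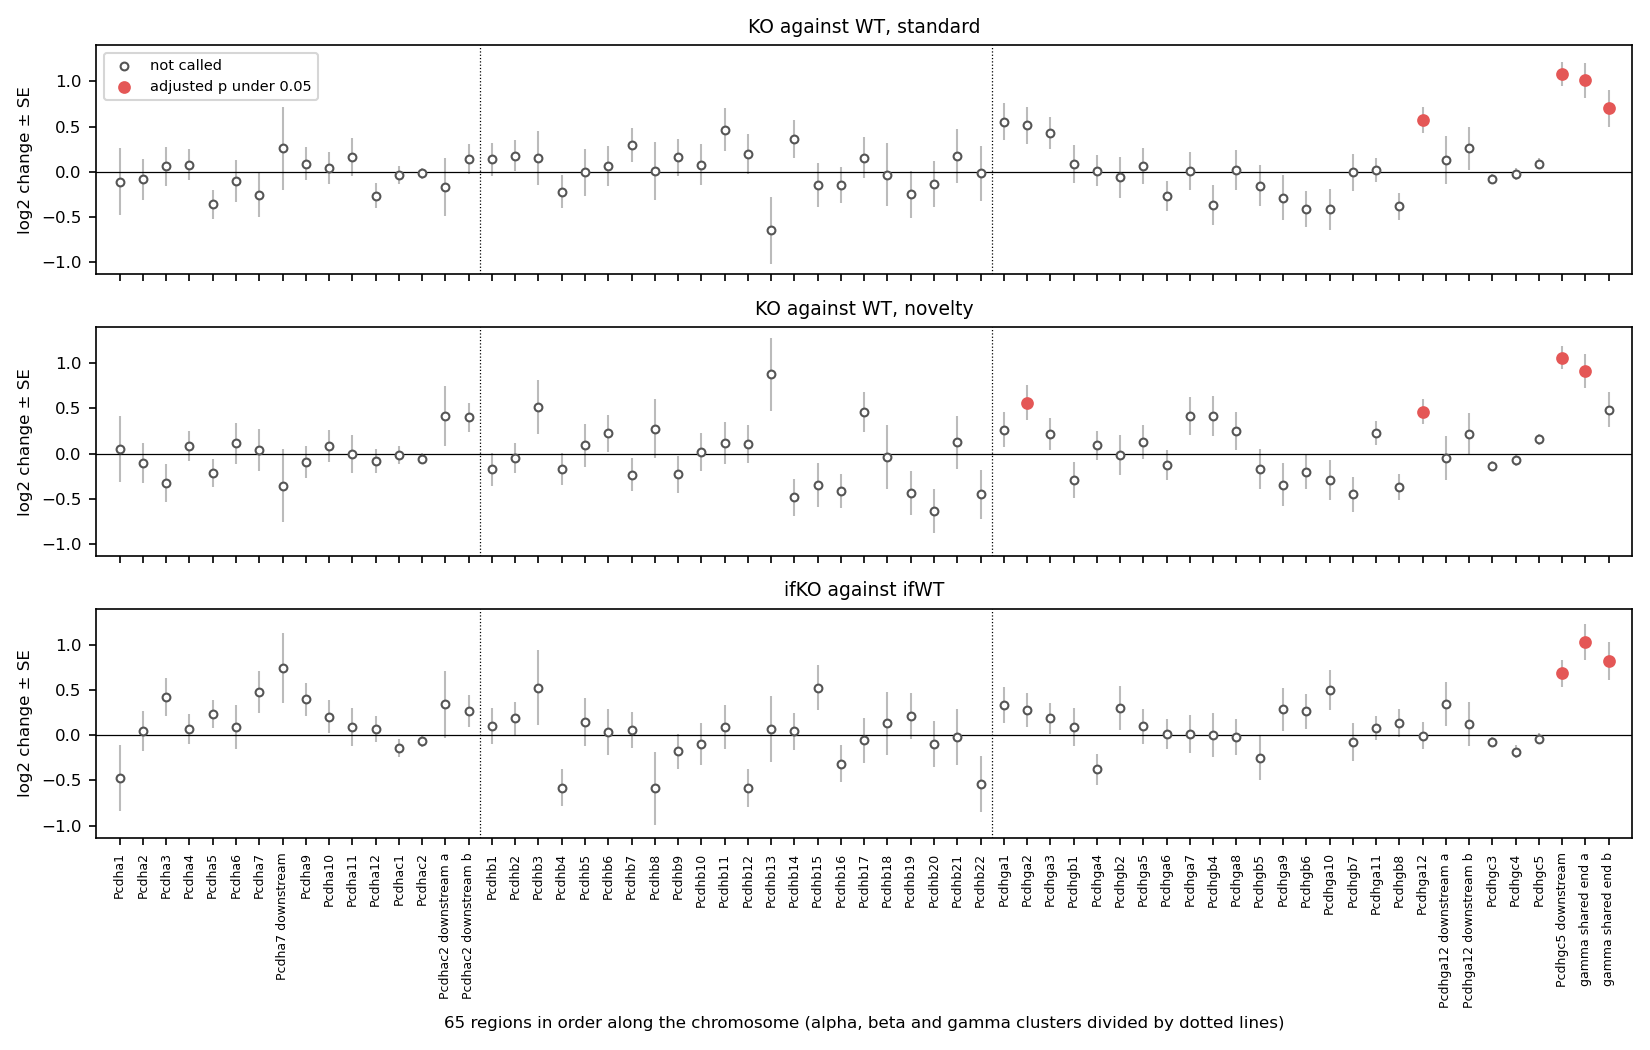
Log2 change of each of the 65 regions in KO against WT under standard conditions (top), KO against WT after novelty (middle) and ifKO against ifWT (bottom), in chromosome order, with lines of 1 SE to either side; filled points passed an adjusted p under 0.05. Filled points are confined to the gamma cluster in these 3 comparisons, and the region past Pcdhgc5 and the region over the shared end are filled in each. From top to bottom, 14.8%, 14.8% and 11.1% of the gamma regions are filled, beside 13.4%, 17.0% and 5.39% of all regions called.

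After novelty, the regions past Pcdhgc5 and over the shared gamma end were again higher in KO, in libraries that the first comparison does not use. 4 members were higher in KO and none lower, 6.15% beside 17.0% of all regions (11.1% higher, 5.96% lower), and 15 had an unadjusted p under 0.05. The median member change was -0.01, beside 0.01 over all regions. The region past Pcdhgc5 had 19.6 and 16.9 CPM in KO and 8.82 and 8.77 CPM in WT (log2 change 1.06 ± 0.13, edgeR adjusted p = 1.89e-07). The shared end had 5.53 and 5.62 CPM in KO and 3.34 and 2.61 CPM in WT (log2 change 0.91 ± 0.18, edgeR adjusted p = 0.000603). Again no KO library overlapped a WT library in either region. Beyond the shared end the values were 4.67 and 3.99 CPM in KO and 2.96 and 3.24 CPM in WT, and the difference did not pass (log2 change 0.49 ± 0.20, edgeR adjusted p = 0.0857).

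The other calls after novelty were the starts of Pcdhga12 and Pcdhga2. Pcdhga12 had 11.5 and 11.7 CPM in KO and 7.35 and 9.39 CPM in WT (log2 change 0.46 ± 0.14, edgeR adjusted p = 0.0205). Pcdhga2, an early gene of the gamma array, had 4.83 and 5.09 CPM in KO and 3.34 and 3.37 CPM in WT (log2 change 0.56 ± 0.19, edgeR adjusted p = 0.0427). Both calls were fragile: Pcdhga12 was lost under 5 alternatives and Pcdhga2 under 6, with adjusted p up to 0.226 and 0.194. The split of the member calls moved with scaling: it was 4 higher and 1 lower with RLE factors, 2 and 1 in DESeq2, 3 and 5 with offsets by region strength, and 5 and 3 when only the compared groups were fitted. Pcdhgc3 and Pcdhgc5, the outer gamma C-type promoters, had log2 changes of -0.14 ± 0.05 and 0.16 ± 0.06 and did not pass (edgeR adjusted p = 0.0579 and 0.0626). Summed over the 3 gamma 3′ regions, the KO libraries held 28.1 ± 2.35 CPM and the WT libraries 14.9 ± 0.356 CPM (SD, n = 2 libraries each). The region past Pcdhgc5 held 18.2 CPM of this in KO and 8.79 CPM in WT. The sum restates the values of the single regions and is no separate support.

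Averaged over both conditions, which reuses the 8 libraries above, 8 members were higher and 3 lower in KO (16.9%, beside 32.1% of all regions, 18.1% higher and 13.9% lower), and 16 had an unadjusted p under 0.05. The calls were 10 gamma regions and the Pcdha5 start, and none was in beta. Within gamma 37.0% of the regions were called and within alpha 6.25%, beside 32.1% of all regions. The region past Pcdhgc5 (log2 change 1.07 ± 0.09), the shared end (0.96 ± 0.13), the region beyond it (0.59 ± 0.14), Pcdhga12 (0.52 ± 0.10) and Pcdhga2 (0.54 ± 0.14) were higher under every alternative tried. Pcdhgb8, a B-type gamma gene, had 7.51 and 6.83 CPM in KO and 10.1 and 8.58 CPM in WT under standard conditions, and 7.21 and 7.45 CPM in KO and 9.03 and 9.88 CPM in WT after novelty. It was lower in all 4 KO libraries than in all 4 WT libraries (log2 change -0.38 ± 0.10, edgeR adjusted p = 0.00642), and its adjusted p was 0.0502 without WT standard replicate 1. The gain at Pcdhga12 and the loss at Pcdhgb8 thus stood at start regions of neighbouring genes, chr18:37765937-37767132 and chr18:37761540-37762461. The Pcdhga12 region lies past the gene start.

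The remaining 5 calls over both conditions were small or fragile. Among gamma C-type promoters, Pcdhgc5 was higher (log2 change 0.12 ± 0.04, edgeR adjusted p = 0.0242) and Pcdhgc3 lower (-0.11 ± 0.04, adjusted p = 0.0214), each lost under 6 alternatives. After novelty the Pcdhgc5 start had 81.0 and 77.6 CPM in KO and 68.0 and 74.0 CPM in WT. Pcdhga1, the first gamma gene, had 4.52 and 4.11 CPM in KO and 3.19 and 2.68 CPM in WT under standard conditions, and 4.07 and 4.92 CPM in KO and 4.22 and 3.27 CPM in WT after novelty (log2 change 0.41 ± 0.14, edgeR adjusted p = 0.0252). Pcdhga3 had 5.79 and 5.72 CPM in KO and 3.77 and 4.78 CPM in WT under standard conditions, and 4.80 and 4.96 CPM in KO and 4.26 and 4.14 CPM in WT after novelty (0.32 ± 0.12, adjusted p = 0.0445). Pcdha5, an alternate alpha gene, had 6.49 and 5.91 CPM in KO and 8.76 and 7.11 CPM in WT under standard conditions, and 6.77 and 6.10 CPM in KO and 7.18 and 7.79 CPM in WT after novelty (-0.29 ± 0.11, adjusted p = 0.0466). These calls were lost under 6, 10 and 9 of 15 alternatives for Pcdhga1, Pcdhga3 and Pcdha5. With offsets by region strength 6 members were higher and 11 lower, and with library totals 9 and 1.

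In the separate ifKO cohort, the 3 gamma 3′ regions were higher and no promoter was called. 3 members rose in ifKO and none fell (4.62%, beside 5.39% of all regions, 4.41% higher and 0.979% lower), 11 had an unadjusted p under 0.05, and the median was 0.09, beside -0.01 over all regions. This comparison shares no library with the KO comparisons. The shared gamma end had 5.55 and 5.90 CPM in ifKO and 2.84 and 2.77 CPM in ifWT (log2 change 1.03 ± 0.20, edgeR adjusted p = 0.000753). Beyond it the values were 5.66 and 4.66 CPM in ifKO and 3.13 and 2.72 CPM in ifWT (0.82 ± 0.21, adjusted p = 0.0141). The region past Pcdhgc5 had 9.21 and 11.6 CPM in ifKO and 6.91 and 6.03 CPM in ifWT (0.68 ± 0.15, adjusted p = 0.00330). The ifKO libraries were above both ifWT libraries at all 3 regions. The sum over the 3 regions was 21.3 ± 1.21 CPM in ifKO and 12.2 ± 0.962 CPM in ifWT (SD, n = 2 libraries each). It restates the values of the single regions and is no separate support.

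The shared end stayed called in every alternative of the ifKO comparison. The region past Pcdhgc5 was lost without ifWT replicate 2 (adjusted p = 0.0638) or ifKO replicate 2 (0.0691), and the region beyond the shared end without ifWT replicate 2 (0.111) or ifKO replicate 1 (0.227). Pcdhga12 had 10.3 and 9.83 CPM in ifKO and 10.0 and 10.2 CPM in ifWT, with an interval of the log2 change from -0.30 to 0.29, and Pcdhgc5 had 59.7 and 60.1 CPM in ifKO and 62.9 and 60.1 CPM in ifWT. Pcdhgb8 had 10.2 and 8.37 CPM in ifKO and 9.31 and 7.64 CPM in ifWT, and Pcdha5 had 9.15 and 10.8 CPM in ifKO and 7.74 and 9.24 CPM in ifWT, neither called. Pcdhga1, Pcdhga2 and Pcdhga3 had 6.02 and 5.22 CPM in ifKO and 4.70 and 4.24 CPM in ifWT, 8.02 and 5.73 CPM in ifKO and 6.32 and 5.09 CPM in ifWT, and 6.12 and 6.74 CPM in ifKO and 5.39 and 5.89 CPM in ifWT. The nearest to a lower call were Pcdhb4 and Pcdhb12, with log2 changes of -0.58 ± 0.20 and -0.59 ± 0.21 (edgeR adjusted p = 0.0964 and 0.105). C-type starts had log2 changes between -0.18 and -0.04, none called, and their share of member CPM was 48.3 ± 1.27% in ifKO and 51.8 ± 0.589% in ifWT (SD, n = 2 libraries each).

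The difference between the KO and the ifKO effect was itself tested, and no member passed (0 of 65, beside 0.701% of all regions, 0.651% higher and 0.0501% lower). At an unadjusted p under 0.05 there were 7 members, and DESeq2 called none. Without KO standard replicate 2 the Pcdhga10 start was lower, a member named only for this. At the shared end the KO effect minus the ifKO effect was -0.02 ± 0.28, with an interval from -0.58 to 0.54. At the region past Pcdhgc5 it was 0.40 ± 0.20, from 0.00 to 0.80, and at Pcdhga12 0.58 ± 0.21, from 0.17 to 1.00 (edgeR adjusted p = 0.284). Neither of the last 2 differences passed after correction over all regions. The KO and ifKO cohorts also differ in strain, which cannot be told apart from the line.

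Exploring the box for 1 h left no called change at the clustered protocadherins. In KO mice, 0 of 65 members passed in novelty against standard conditions, beside 0.0% of all regions, and in WT mice 0 of 65 passed, beside 0.00556%. At an unadjusted p under 0.05 there were 1 and 5 members in KO and WT, and DESeq2 called none in either. The interaction of genotype and novelty had 0 calls as well (0.0% of all regions, 3 members at an unadjusted p under 0.05, none in DESeq2). The largest log2 change in WT mice was at Pcdhb13, a weak beta start, where WT novelty libraries had 0.464 and 0.522 CPM and WT standard libraries 1.39 and 1.12 CPM (log2 change -1.33 ± 0.40, edgeR adjusted p = 0.627). Pcdhb13 also had the largest interaction value, 1.52 ± 0.55. At the region past Pcdhgc5 the log2 change with novelty was -0.00 ± 0.12 in KO and 0.02 ± 0.14 in WT. The 5 C-type starts had log2 changes of -0.05 to 0.09 in KO and of -0.04 to 0.02 in WT.

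Between the control cohorts, 9 promoters were called, in both directions. Set against WT mice of the mixed background under standard conditions, ifWT mice were higher at 6 members and lower at 3, 13.8% beside 14.5% of all regions (7.28% higher, 7.2% lower), with 17 at an unadjusted p under 0.05. With library totals the split was 5 and 5. The median was 0.12, beside -0.00053 over all regions. Strain, cohort, and any effect of 129 sequence on read mapping cannot be told apart here. 7 of the 9 calls were alternate or beta promoters and 2 were C-type promoters.

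Pcdhb12 differed most upward, with 8.18 and 5.98 CPM in ifWT and 3.55 and 3.08 CPM in WT (log2 change 1.09 ± 0.21, edgeR adjusted p = 0.000543). Pcdhb9 had 8.57 and 6.79 CPM in ifWT and 5.30 and 3.44 CPM in WT (0.81 ± 0.20, adjusted p = 0.00510). Pcdhb3 went the other way, with 0.980 and 0.625 CPM in ifWT and 2.02 and 2.23 CPM in WT (-1.41 ± 0.36, adjusted p = 0.00702). Of the 22 beta promoters, 2 were higher and 1 lower in ifWT, 13.6% beside 14.5% of all regions. In gamma, 4 A-type starts were higher in ifWT. Pcdhga2 had 6.32 and 5.09 CPM in ifWT and 3.46 and 3.13 CPM in WT (log2 change 0.79 ± 0.20). Pcdhga8 had 5.14 and 5.58 CPM in ifWT and 3.14 and 3.17 CPM in WT (0.76 ± 0.21). For Pcdhga4 the values were 7.69 and 8.66 CPM in ifWT and 5.17 and 5.85 CPM in WT (0.57 ± 0.17), and for Pcdhga1 4.70 and 4.24 CPM in ifWT and 3.19 and 2.68 CPM in WT (0.61 ± 0.21).

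Of the C-type promoters, Pcdhgc3 was lower in ifWT, at 83.8 and 86.7 CPM, than in WT, at 106 and 103 CPM (log2 change -0.29 ± 0.05, edgeR adjusted p = 0.000175), and so was Pcdhgc5, at 62.9 and 60.1 CPM in ifWT and 66.7 and 73.6 CPM in WT (-0.19 ± 0.06, adjusted p = 0.0370). The C-type share of member CPM was 51.8 ± 0.589% in ifWT and 56.7 ± 1.60% in WT under standard conditions (SD, n = 2 libraries each). Pcdhb12 and Pcdhgc3 were called under every alternative. The others were each lost under 2 to 7 of 11 alternatives, most often without 1 library; Pcdhb3 had an adjusted p of 0.154 with a replicate block. The gamma 3′ regions that differed by genotype showed no called difference between the control cohorts, with log2 changes of 0.06 ± 0.21 at the shared end, -0.05 ± 0.22 beyond it and -0.42 ± 0.15 past Pcdhgc5 (edgeR adjusted p = 0.0548 for that last region).

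**Figure D4:**
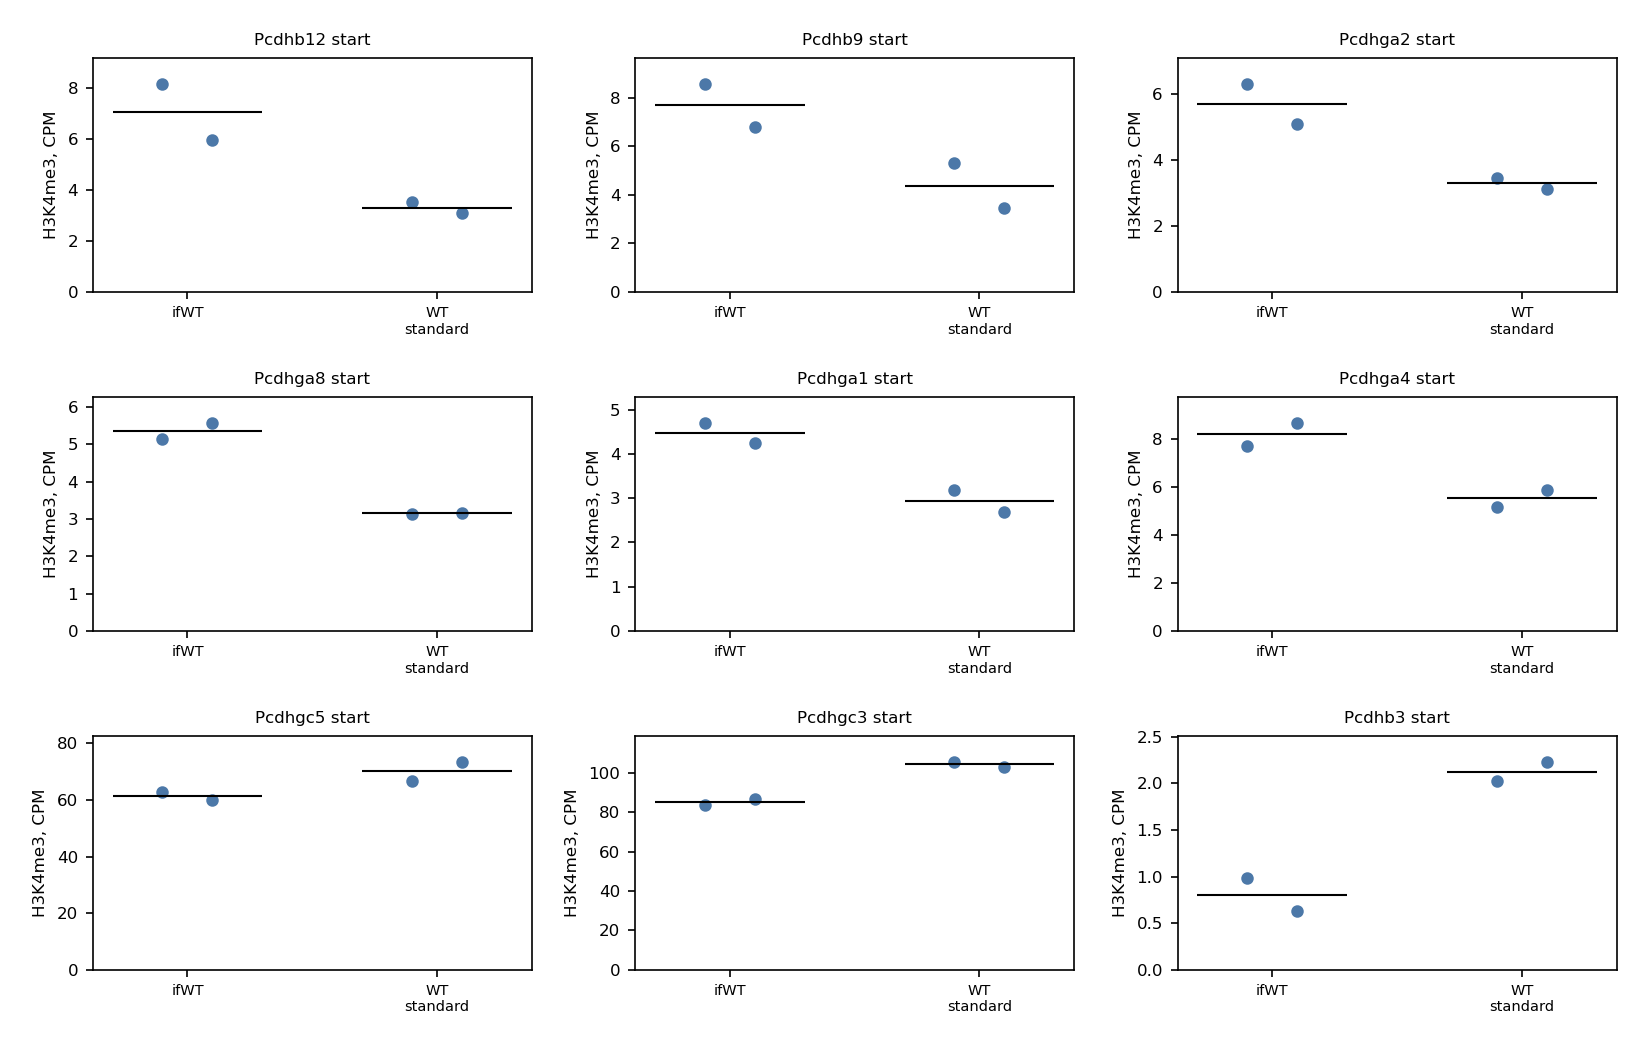
H3K4me3 in CPM in each ifWT library (left) and each WT library under standard conditions (right) at the 9 starts called between the control cohorts; bars are means of 2 libraries. At each of the 9 starts the libraries of the cohorts do not overlap.

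Genes that work with the clustered protocadherins were read from the same fit. Of 18 chromatin regulators, most of them known to act at these clusters, 14 had a region at a gene end, and 1 was higher and 3 lower in KO under standard conditions, beside 9.73% higher and 3.67% lower over all regions (median log2 change -0.09, beside 0.01 over all regions). After novelty 1 was higher and 4 lower, beside 11.1% and 5.96%. Over both conditions 1 was higher and 10 lower, beside 18.1% and 13.9%, with a median of -0.14. In ifKO 1 was higher and none lower, beside 4.41% and 0.979%. The higher one in each comparison was Nsd1, which encodes a methyltransferase of histone H3 lysine 36, with 74.7 and 79.7 CPM in KO and 35.1 and 38.6 CPM in WT under standard conditions (log2 change 1.07 ± 0.06, and 0.79 ± 0.06 in ifKO). The lower ones under standard conditions were the cohesin release factor gene Wapl (-0.19 ± 0.05), the X-inactivation and protocadherin silencing factor gene Smchd1 (-0.19 ± 0.06) and Kdm5c itself (-0.20 ± 0.07). Those lower after novelty included Ctcf (-0.20 ± 0.06), the cohesin gene Rad21 (-0.24 ± 0.06) and Wapl (-0.25 ± 0.05). Over both conditions the lower ones included Wapl (-0.22 ± 0.04), Rad21 (-0.17 ± 0.04), Smchd1 (-0.17 ± 0.05), Kdm5c (-0.17 ± 0.05) and Ctcf (-0.13 ± 0.04), and of these Wapl was called under every alternative. Under the alternatives the number lower ran from 0 to 4 under standard conditions, from 1 to 9 after novelty and from 3 to 12 over both, and Nsd1 was called under all of them. With offsets by region strength 3 were lower over both conditions, with a median of -0.09. Whether the regulators differed from other regions of like strength was not tested.

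The 12 non-clustered protocadherins, which are encoded outside these clusters, had a median level of 33.9 CPM per kb. None was called in KO under standard conditions or in ifKO, and after novelty 1 was lower, Pcdh19, the X-linked epilepsy gene (-0.29 ± 0.06), which was not called without WT novelty replicate 2 (-0.19, adjusted p = 0.132). Over both conditions Pcdh19 was again the one lower (-0.19 ± 0.04). The number lower after novelty ran from 0 to 3 under the alternatives. Over all regions 13.4% were called under standard conditions and 5.39% in ifKO. Lower calls made up 3.67% of all regions under standard conditions, 5.96% after novelty and 13.9% over both. Among 9 genes of the kinase and actin-regulating proteins that protocadherin tails engage, 1 was lower in KO under standard conditions, the WAVE complex gene Abi1 (-0.20 ± 0.05), and none in ifKO. Abi1 was also the 1 lower after novelty (-0.17 ± 0.05), and each of these calls was lost under 4 of 11 alternatives. Under standard conditions these were offsets by region strength (adjusted p = 0.0709) and leaving out WT replicate 1 (0.0603), WT replicate 2 (0.0573) or KO replicate 2 (0.0539). After novelty they were library totals (0.0515), offsets by region strength (0.218) and leaving out WT replicate 2 (0.140) or KO replicate 1 (0.215). Over both conditions 4 of the 9 were lower, beside 13.9% of all regions. These were Abi1, Wasf1, Cyfip1 and Rac1, with log2 changes between -0.19 and -0.11. The median over both conditions was -0.09 for the 9 genes and -0.07 for the non-clustered protocadherins, beside 0.01 over all regions.

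In ifKO, Camk2a was the only one of the 8 neuron markers called (1.02 ± 0.06), beside 5.39% of all regions. The median log2 change in ifKO was 0.04 over the 8 and -0.06 over the 11 markers of other cells. In KO under standard conditions Neurod6 was higher (0.33 ± 0.08) and Prox1 lower (-0.37 ± 0.08), beside 9.73% higher and 3.67% lower over all regions. The Neurod6 call was lost without WT replicate 2 or KO replicate 1, and the Prox1 call in DESeq2 and without WT replicate 2, with adjusted p up to 0.103. After novelty Neurod6 was again higher (0.38 ± 0.08), and Prox1 (-0.35 ± 0.08) and Bcl11b (-0.23 ± 0.08) were lower. Over all regions 11.1% were higher and 5.96% lower after novelty. The Prox1 call after novelty was lost in DESeq2 and without WT replicate 2, and the Bcl11b call under 5 of 11 alternatives. Summed over the 8 markers the signal was 705 to 752 CPM in KO and 733 to 782 CPM in WT under standard conditions, 718 to 735 CPM in KO and 678 to 762 CPM in WT after novelty, and 816 to 859 CPM in ifKO and 661 to 712 CPM in ifWT. For the 11 markers of other cells it was 259 to 269 CPM in KO and 274 to 275 CPM in WT under standard conditions, 251 to 266 CPM in KO and 257 to 258 CPM in WT after novelty, and 228 to 233 CPM in ifKO and 243 to 243 CPM in ifWT. These sums weigh each gene by its CPM, so 1 gene such as Camk2a can move them. The part of these markers in the gamma 3′ differences was not tested.

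Kdm5C binding and H3K4me1 could not be set beside these regions. Those 4 libraries, 1 KO and 1 WT for each, were deposited as signal over 2321 regions, of which 68 were on chromosome 18 and 0 at a member, the nearest lying 128 kb from the clusters.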

How the data were processed

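H3K4me3 was measured in 12 hippocampal libraries, and the members and gene lists were chosen with earlier results of these data known. The authors deposited 1 raw count of reads per region and library for one common region set, as the file headers show. The H3K4me1 and Kdm5C files hold a deposited signal per region and were only searched for members. The submitters' processing notes name mm10 and the tools MACS2 2.1.0, SAMtools 1.3.1, Bowtie2 2.2.9, R 3.3, DESeq2 1.10.0 and featureCounts. Their roles, the definition of the regions and the treatment of multi-mapping reads are not given in the sources used here. Input libraries were not used.

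Of 36005 listed regions, 9 repeated another and were dropped. Genes came from a RefSeq table of GRCm38.p6. All 12 libraries were fitted together in edgeR 4.0.16 (R 4.3.3; limma 3.58.1) with 1 mean per group, TMM factors, filterByExpr (41 regions removed, all 65 members kept), quasi-likelihood F tests and Benjamini-Hochberg adjustment over 35955 regions in each of 9 comparisons, with a threshold of 0.05. The fit was tested on simulated data with the same spread in all groups and changes placed only in KO under standard conditions. That simulation could not check the larger spread in ifKO and ifWT. CPM used TMM-scaled library sizes; 3 counts equal 0.0953 to 0.168 CPM, and more deeply sequenced libraries carry less counting error. With 2 libraries a group, an exact permutation test of one region cannot go below p = 0.333, so none was used. Members named with every library's value were those called in any comparison, the 3 with the highest and 1 with the lowest mean CPM per cluster, all C-type and shared-end regions, and the 3 with the smallest p per genotype comparison. Alternatives were RLE factors, library totals, offsets by region strength, no low-count filter, DESeq2 1.42.0, the compared groups only, a replicate block, each library left out, and windows of 1 kb and 5 kb.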

Additional observations from a re-analysis of the deposited data

How the results depend on the processing

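The number of members called stayed within 1.5 times the main value under most alternatives. Among these, the windows of 1 kb and 5 kb gave the same 65 members and could not change that number. After novelty it was 8 in place of 4 with offsets by region strength and 8 when only the compared groups were fitted, and over both conditions it was 17 in place of 11 with offsets and 7 in DESeq2. The cause was not tested. With 1 library left out, the count ran from 2 to 4 in KO against WT under standard conditions, 2 to 3 after novelty, 7 to 10 over both conditions, 1 to 3 in ifKO, 0 to 1 for the KO effect minus the ifKO effect and 3 to 6 between control cohorts. Leaving out 1 of 2 libraries assumes that the lone one varies like the other groups. Same-numbered libraries did not pair, with correlations of their deviations from the group means between -0.118 and 0.0826. With a replicate block the KO comparisons had 4 calls (standard), 4 (novelty) and 11 (both), and there were 4 in ifKO (3 higher, 1 lower), 6 between control cohorts (5 higher, 1 lower) and 0 elsewhere. The calls at the region past Pcdhgc5 and over the shared gamma end kept their direction throughout.

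Some uncalled C-type values near 0 changed sign, and the cause was not tested. With library totals the log2 change of Pcdhac1 was 0.0075 under standard conditions, 0.025 after novelty and 0.016 over both, that of Pcdhac2 0.025 under standard conditions and 0.0053 over both, and that of Pcdhgc4 0.018 under standard conditions. With offsets by region strength Pcdhac2 was 0.055 under standard conditions, 0.023 after novelty and 0.039 over both, and Pcdhgc5 in ifKO was 0.016. With 1 library left out, Pcdhac1 ran from -0.14 to 0.075 (standard), -0.065 to 0.037 (novelty) and -0.076 to 0.029 (both), and Pcdhac2 from -0.048 to 0.013 (standard) and -0.12 to 0.0042 (novelty). No scaling moved the median of all regions by over 0.1. Depth limits the weak promoters: members held between 10 and 3067 reads per library.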

Other observations

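The nearest H3K4me3 region beyond the 3′ end of the gamma cluster lay inside Diaph1 at chr18:37852769-37853605, 10.9 kb beyond the shared gamma end, and was looked at after the values of its neighbours were seen. It had 2.71 and 2.24 CPM in KO and 0.719 and 1.21 CPM in WT under standard conditions (log2 change 1.35 ± 0.31, edgeR adjusted p = 0.00271). After novelty it had 2.32 and 1.79 CPM in KO and 1.06 and 0.904 CPM in WT (1.08 ± 0.30, adjusted p = 0.0127). In ifKO it had 1.80 and 2.53 CPM, beside 1.22 and 1.43 CPM in ifWT (0.69 ± 0.31, adjusted p = 0.221). The region at the Diaph1 promoter end differed by -0.15 ± 0.06 in KO under standard conditions (edgeR adjusted p = 0.108), and the region of Taf7, a single gene between the beta and gamma clusters, by -0.20 ± 0.06 (adjusted p = 0.0266). The Taf7 region did not pass after novelty (-0.11 ± 0.06, edgeR adjusted p = 0.234) or in ifKO (-0.17 ± 0.06, adjusted p = 0.134). Nor did the Diaph1 promoter end (edgeR adjusted p = 0.0556 after novelty and 0.265 in ifKO).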
